A study of Mus musculus with 2 samples.

Results

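The MHC class II genes and Cd74 were taken as 9 named genes of the 34097 listed in the count matrices, and all 9 were found by symbol. They are the classical chains H2-Aa, H2-Ab1 and H2-Eb1, the invariant chain Cd74, the peptide-exchange chains H2-DMa, H2-DMb1, H2-DMb2 and H2-Oa, and Ciita, the transactivator of the class II genes. Class II molecules present peptides from endocytosed protein to CD4+ T cells. Alpha and beta chains assemble on the invariant chain in the endoplasmic reticulum, cathepsins trim that chain down to a fragment called CLIP, and the H2-DM heterodimer exchanges CLIP for peptide while H2-O restrains H2-DM. Ciita binds no DNA by itself and acts through factors bound at the X and Y boxes of class II promoters. It is transcribed from separate promoters in dendritic cells, in B cells and after interferon gamma, and its level usually limits class II transcription. Macrophages raise class II mainly through interferon gamma.

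Single-cell RNA was counted as unique molecular identifiers (UMIs) on the 10x Genomics platform in mouse lung cancer xenografts grown from LLC, the Lewis lung carcinoma line. The control library is titled NC. The other, titled SH and called the knockdown library here, is from a tumour treated with shRNA to Gfpt2, which catalyses the entry step of hexosamine synthesis. The labels used here give no mouse strain, sex, number of animals, number of clones or time of harvest, and the hairpin is named for the tumour and not for any host cell. Since each group is a single library, no difference could be set against replicates or tested, and every 95% interval below covers counting error only.

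The control library held 11977 cells and 165824226 UMIs and the knockdown library 12853 cells and 138402860 UMIs, of which 10662 and 11450 cells were kept. The 2 libraries shared 37 cell barcodes. Gfpt2 had 244 UMIs (1.76 CPM, the share of a gene in the UMIs of the same cells, scaled per 1000000) in kept control cells and 68 (0.574 CPM) in kept knockdown cells. Cells were gated on a few genes, none of them a member. Macrophages had at least 10 UMIs of C1qa, C1qb and C1qc per 10000, and numbered 3990 in control and 4556 in knockdown cells. Monocytes (144 and 40) had Lyz2 of at least 20 and C1q under 5 per 10000, and dendritic cells (62 and 56) had at least 3 UMIs of Flt3, Zbtb46, Xcr1, Clec9a and Ccr7 and none of Cd3. Tumour-like cells (4986 and 5211) had no Ptprc UMI, Lyz2 under 5 per 10000 and at least 5000 UMIs. Median depth per cell was 5379.5 and 3953.5 UMIs in macrophages, 3267 and 2405 in monocytes, 6435.5 and 9163.5 in dendritic cells and 18744 and 14667 in tumour-like cells. The 10 macrophage markers summed to 76469 and 63368 CPM in macrophages and to 9736 and 11415 CPM in monocytes. The 8 monocyte markers summed to 18070 and 18854 CPM in monocytes and to 10934 and 9578 CPM in macrophages, but 2 of them, Vcan and S100a4, were higher in control tumour-like cells (237 and 2445 CPM) than in control monocytes (96.6 and 1207 CPM). In the tumour-like gate Hmga2 was at 220 and 218 CPM, but of the other markers set for LLC cells Krt8 had 9 and 8 UMIs, Krt18 had 1 and 0 and Epcam had 4 and 8, and 5 fibroblast genes summed to 2503 and 2805 CPM against 221 and 220 CPM for the 5 LLC markers. The name tumour-like is thus a working name for cells without Ptprc, in which tumour cells and fibroblasts were not told apart. The gates overlapped: 14 dendritic cells in each library also met the tumour-like gate and 11 in each also met the macrophage gate.

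The promoters are shown because class II transcription is known to use their X and Y boxes. The RefSeq windows of GRCm38.p6 (250 bases before to 50 after a gene's start) were matched by symbol and covered 6 of the 9 members, without H2-Ab1, Cd74 and Ciita, and with 2 starts for H2-DMa. An X-box core was searched as AACNGATG and a Y-box core as ATTGG, each on both strands, with letters and spacing chosen after these windows had been seen. The Y core lay in 37.4% of 32851 windows and the X core in 2.32%. An X core followed on the same strand by a Y core, with 25 to 35 bases from start to start, lay in 6 windows (0.0183%). Those were the windows of H2-DMb1, H2-DMb2, H2-Eb1 and H2-Eb2, and of BC051142 and Gm35697. The spacing was 31 bases in H2-DMb1 and H2-DMb2 and 30 bases in H2-Eb1 and H2-Eb2. H2-Aa and H2-Oa had the Y core alone, H2-DMa had it at 1 of its starts, and these letters were not found at the other. The 130 bases that end 21 bases before the start are printed 5′ to 3′ on the strand of the gene, with the cores in capitals (X first, then Y, and in H2-Eb1 a further Y core of the opposite strand, which reads CCAAT). They lie at chr17:34305717-34305846 (H2-Eb1, plus strand), chr17:34153041-34153170 (H2-DMb1, plus), chr17:34145099-34145228 (H2-DMb2, plus), chr17:34287844-34287973 (H2-Aa, minus) and chr17:34092229-34092358 (H2-Oa, plus). A match is a description of the letters and not a measured site, and a window without a match may still hold an X box of other letters.
H2-Eb1: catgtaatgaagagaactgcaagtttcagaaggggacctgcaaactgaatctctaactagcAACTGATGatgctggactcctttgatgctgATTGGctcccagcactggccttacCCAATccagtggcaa
H2-DMb1: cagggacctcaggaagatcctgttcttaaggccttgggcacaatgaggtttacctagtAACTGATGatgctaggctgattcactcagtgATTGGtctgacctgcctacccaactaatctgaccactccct
H2-DMb2: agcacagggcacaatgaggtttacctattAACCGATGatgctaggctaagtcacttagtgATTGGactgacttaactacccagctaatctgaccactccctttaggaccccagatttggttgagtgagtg
H2-Aa: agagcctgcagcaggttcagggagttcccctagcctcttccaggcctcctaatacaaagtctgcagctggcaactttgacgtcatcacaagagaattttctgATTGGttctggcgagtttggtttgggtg
H2-Oa: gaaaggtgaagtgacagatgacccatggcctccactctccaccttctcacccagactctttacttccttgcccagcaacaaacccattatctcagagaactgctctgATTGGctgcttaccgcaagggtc

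Class II RNA lay mostly in macrophages. They held 92.0% of the Cd74 UMIs of kept control cells and 92.4% of those of kept knockdown cells, counting each cell in 1 gate only. The corresponding shares were 83.1% and 83.2% for Ciita, 83.5% and 81.9% for H2-DMa, 75.6% and 76.7% for H2-DMb1, and 69.3% and 63.75% for H2-DMb2. H2-Oa stood apart, with 44.1% and 44.5% of its UMIs in macrophages and 28.4% and 29.7% in cells of no gate.

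The level of Cd74, the invariant chain, was 10568 CPM in control macrophages, 10133 CPM in control dendritic cells and 4009 CPM in control monocytes. It was 135 CPM in NK cells (NK cells 30 and 32 in number), 119 CPM in T cells (436 and 372 cells) and 62.1 CPM in tumour-like cells of the control library. The NK and T values had overlapping intervals (88.9 to 196 and 107 to 133 CPM), and the other neighbours in this order did not overlap. In the knockdown library the order was macrophages at 12093, dendritic cells at 8028, monocytes at 2449, T cells at 136, NK cells at 121.5 and tumour-like cells at 93.2 CPM, where the NK interval (77.0 to 182 CPM) covered both the T and the tumour-like value. H2-Aa, H2-Ab1 and H2-Eb1, which form the peptide-binding chains, kept the same separation between myeloid gates and the rest. H2-Aa was at 2711 and 3087 CPM in macrophages, 2791 and 2422 CPM in dendritic cells, 914 and 587 CPM in monocytes, and 18.9 and 27.8 CPM in tumour-like cells (control first). The order of macrophages and dendritic cells rests on dendritic cells that also met another gate. In cells of 1 gate only, control dendritic cells stood above control macrophages for all 4 genes (Cd74 at 15385 and 10630 CPM, H2-Ab1 at 6820 and 3988 CPM). Knockdown dendritic cells there stood above macrophages for H2-Aa (3367 and 3141 CPM) and H2-Ab1 (4842 and 4738 CPM) and below them for H2-Eb1 (4484 and 5161 CPM) and Cd74 (10448 and 12310 CPM).

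**Figure D1:**
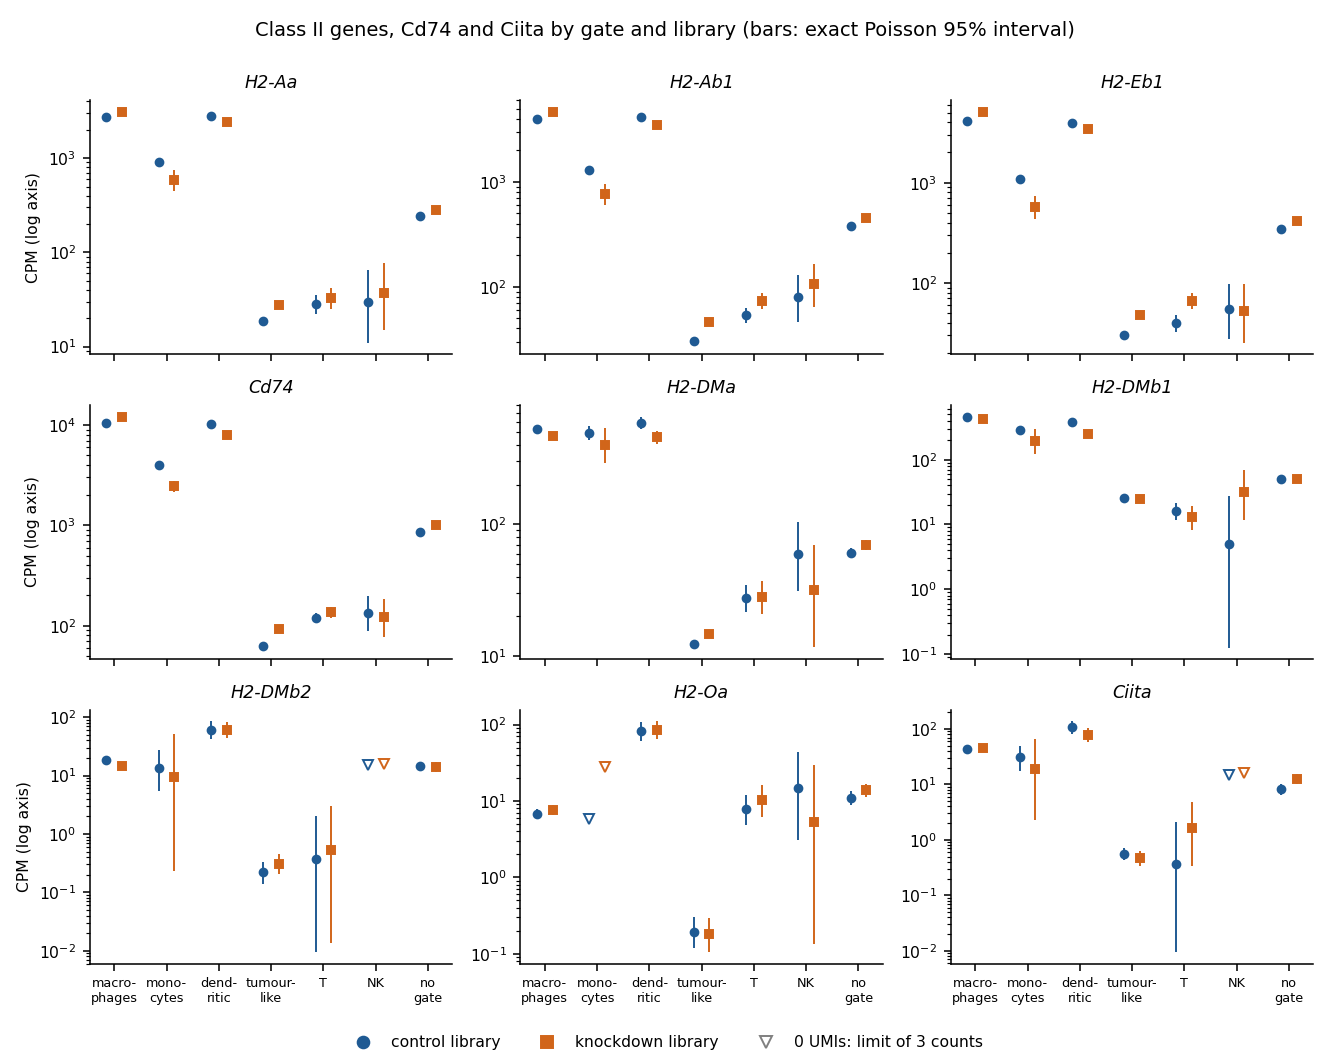
Level of each of the 9 genes in CPM (log axis) by gate, control library as circles and knockdown library as squares, with exact Poisson 95% intervals and open triangles where no UMI was counted (limit of 3 counts). The classical chains and Cd74 lie far higher in macrophages, dendritic cells and monocytes than in tumour-like, T and NK cells, while H2-Oa is highest in dendritic cells at 81.7 and 85.6 CPM.

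The exchange and regulator genes followed other orders. H2-DMa, the alpha chain of the exchange factor, was at 532 and 469 CPM in macrophages, 591 and 457 CPM in dendritic cells and 496 and 400 CPM in monocytes. The monocyte intervals (438 to 561 and 290 to 539 CPM) overlapped those of macrophages and dendritic cells in both libraries, although monocytes had far less Cd74. Ciita was at 42.8 and 44.4 CPM in macrophages and 107 and 78.3 CPM in dendritic cells, and the intervals of these gates did not overlap in either library. H2-DMb2 was at 18.2 and 14.7 CPM in macrophages and 61.3 and 60.9 CPM in dendritic cells. H2-DMb1 and H2-DMb2 are close copies. Of the 451 words of 50 bases in the last 500 bases of the H2-DMb1 transcript, 20.4% also occur in the H2-DMb2 transcript, whereas 0 of the 451 words at the end of H2-DMb2 occur in H2-DMb1. Reads of the shared stretch of H2-DMb1 may be divided between them.

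H2-Oa, the alpha chain of the factor that restrains H2-DM, followed neither the classical chains nor H2-DM. It was at 81.7 CPM (60.3 to 108) in control dendritic cells and 85.6 CPM (65.2 to 110) in knockdown dendritic cells, against 6.74 (5.74 to 7.87) and 7.62 CPM (6.50 to 8.88) in macrophages. In monocytes no UMI was counted, where 3 counts would be 5.79 and 27.9 CPM. Control T cells had 7.78 CPM from 21 UMIs, and knockdown T cells 10.3 CPM from 19 UMIs. That was 115% (71.4 to 176) and 135% (81.1 to 210) of the macrophage level, whereas Cd74 in the same T cells was at 1.13% and 1.12% of it. These intervals cover the T cell count and take the macrophage level, on 160 and 164 H2-Oa UMIs, as fixed. The part of free RNA in the T cell counts was not tested. After thinning to 3000 UMIs a cell, 2.95% and 3.87% of T cells and 1.95% and 2.32% of macrophages had a H2-Oa UMI (237 and 181 T cells and 3077 and 2851 macrophages were deep enough). H2-Ob, its beta chain and no member, was at 66.4 and 39.2 CPM in dendritic cells, 5.90 and 6.27 CPM in macrophages, and had 4 and 0 UMIs in T cells. H2-Ea, the alpha partner of H2-Eb1, had 2 and 1 UMIs in all macrophages and 0 in tumour-like, T, NK and dendritic cells and monocytes.

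Among profiles of 6 gates in both libraries, the genes most like the mean of H2-Aa, H2-Ab1, H2-Eb1 and Cd74 were led by Ciita (Pearson r of 0.97 on log2(CPM + 1), 12 profiles, first of 13162 genes). Behind it came Mgl2 and Ppfia4 (0.97 each), H2-DMa and Cxcl16 (0.96 each), Slamf9, Nlrp1c-ps, Ebi3, Cd40 and Acvrl1 (0.96 each). H2-DMb2 ranked at 11 (0.96) and H2-DMb1 at 29 (0.94). H2-Oa ranked at 2402 (0.38). The profiles share libraries and gates, so these values are a description.

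In macrophages the classical chains and Cd74 were slightly higher in the knockdown library, and the exchange chains were slightly lower or level. H2-Eb1 was at 4130 CPM in control and at 5073 in knockdown macrophages (log2 ratio 0.30, 0.28 to 0.31). H2-Ab1 went from 3964 to 4655 CPM (0.23, 0.22 to 0.24). Cd74 went from 10568 to 12093 CPM on 250742 and 260195 UMIs (0.19, 0.19 to 0.20), and H2-Aa had the same log2 ratio of 0.19. The intervals of these 4 genes all lay above 0, and those of the H2-DM chains all lay below it. H2-DMa was at -0.18 (-0.22 to -0.15), H2-DMb1 at -0.09 (-0.13 to -0.05) and H2-DMb2 at -0.31 (-0.52 to -0.10). Ciita had 0.05 (-0.08 to 0.18) and H2-Oa 0.18 (-0.15 to 0.50), intervals that include no difference. None of the 9 reached 1.5-fold in either direction, where 10.5% of 10753 genes were that much higher and 1.26% that much lower (1128 and 135 genes, or 936 and 230 scaled by TMM). The total of such genes was far lower without doublet removal, as given under processing below. The median of the 9 was 0.18, the value of H2-Oa, and that of all genes tested 0.10, and Cd74 lay at percentile 63.5 of them. Scaled by TMM, which takes off a shift of 0.10, Cd74 was at 0.09, H2-Eb1 at 0.20 and Ciita at -0.05.

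The size of this difference moved with which cells were counted as macrophages. The knockdown macrophages held more Hmga2 and fibroblast RNA: Hmga2 had 32.8 and 88.2 CPM, 382 cells (9.57%) and 805 cells (17.7%) held a Hmga2 UMI, and the 5 fibroblast genes summed to 295 and 818 CPM. The 10 macrophage markers summed to 76469 and 63368 CPM. In macrophages without a Hmga2 UMI, Cd74 was at a log2 ratio of 0.37, H2-Eb1 at 0.47, H2-DMa at 0.00 and H2-DMb1 at 0.08. Removing these cells moved all of the named ratios up. With C1q of at least 50 per 10000, Cd74 was at 0.42, H2-Eb1 at 0.51, H2-DMa at 0.05 and H2-DMb1 at 0.13. Scrublet's own doublet threshold, which marked 1089 control cells and 2808 knockdown cells where ranking removed 1148 and 1322, gave Cd74 0.51, H2-Eb1 0.61, H2-DMa 0.12 and H2-DMb1 0.21. The 4 presenting genes were higher in the knockdown library in each of these selections, whereas H2-DMa and H2-DMb1 changed sign.

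**Figure D2:**
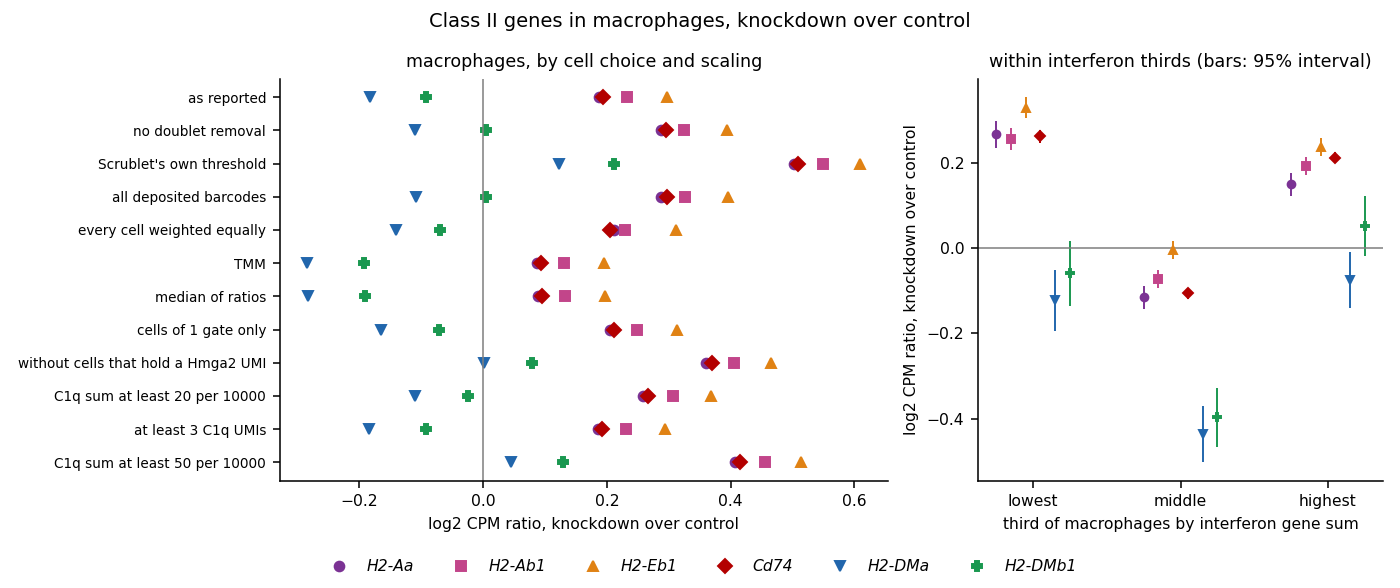
Log2 CPM ratio in macrophages, knockdown over control, for H2-Aa, H2-Ab1, H2-Eb1, Cd74, H2-DMa and H2-DMb1 under each choice of cells and scaling (left) and, with 95% counting intervals, within 3 classes of interferon response (right). Cd74 runs from 0.09 (TMM) to 0.51 (Scrublet's own threshold) on the left, and on the right it is above 0 in the low and high classes and at -0.11 in the middle one.

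Macrophages were also split by the sum of 6 interferon-stimulated genes (Ifit1, Ifit2, Ifit3, Isg15, Rsad2 and Oasl1) into 3 classes of equal size over both libraries. The low class, under 4.66 UMIs per 10000, held 43.5% of control and 24.4% of knockdown macrophages, and the high class, above 19.2, held 25.9% and 39.9%. Cd74 was at 9010 CPM in the low, 11286 CPM in the middle and 12537 CPM in the high class of the control library. In the knockdown library it was at 10804, 10487 and 14524 CPM. The control level climbed over the classes, whereas in the knockdown library the low and middle classes were close and the high class stood above them. Within classes Cd74 thus had log2 ratios of 0.26 (0.25 to 0.28), -0.11 (-0.12 to -0.09) and 0.21 (0.20 to 0.23). H2-Eb1 had 0.33, -0.0049 and 0.24, and Ciita had 0.19 (-0.07 to 0.45), -0.27 (-0.49 to -0.05) and -0.02 (-0.23 to 0.20). The middle class differed from the others for H2-DMa as well, at -0.44 against -0.12 and -0.07. Hmga2 was at 30.4 and 127 CPM in that class, 41.5 and 79.6 CPM in the low and 19.9 and 54.0 CPM in the high class.

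Single macrophages ranged widely. The summed H2-Aa, H2-Ab1, H2-Eb1 and Cd74 level had a median of 133 per 10000 UMIs in control macrophages, with 2.16 at the 5th and 662 at the 95th percentile. In knockdown macrophages the values were 149, 5.43 and 759, and 162 control and 112 knockdown macrophages had none of these UMIs. The cells were ranked by this sum within each library, and of 4 equal groups the lowest (median 7.50 and 16.1 per 10000), called class II-low here, was set against the highest (518 and 612), called class II-high. Each held 997 control or 1139 knockdown cells. What follows concerns genes that the ranking did not use.

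Ciita was at 4.02 CPM in class II-low and 104 CPM in class II-high control macrophages (log2 ratio 4.69, 4.08 to 5.38), and at 2.62 and 110 CPM in those of the knockdown library (5.40, 4.67 to 6.25). H2-DMb1 went from 98.2 to 931 CPM and from 81.4 to 957 CPM, and H2-DMa from 207 to 935 CPM and from 138 to 952 CPM. H2-Oa, at 1.10 and 14.6 CPM in the control library, had 1.22 and 17.9 CPM in the knockdown library. H2-DMb2 was the member whose span differed most between the libraries, with log2 ratios of 1.75 (1.30 to 2.21) in control and 3.89 (3.11 to 4.79) in knockdown macrophages. All of the 5 members outside the ranking were higher in the class II-high group of each library. Hmga2 went the other way, from 69.4 to 9.59 CPM and from 154 to 17.3 CPM. Among macrophages with C1q of at least 50 per 10000 and no Hmga2 UMI (3197 control, 3141 knockdown), the log2 ratios were 4.68 and 4.18 for Ciita, 1.72 and 1.96 for H2-DMa, 2.93 and 2.88 for H2-DMb1, 1.27 and 2.65 for H2-DMb2 and 3.19 and 2.81 for H2-Oa.

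**Figure D3:**
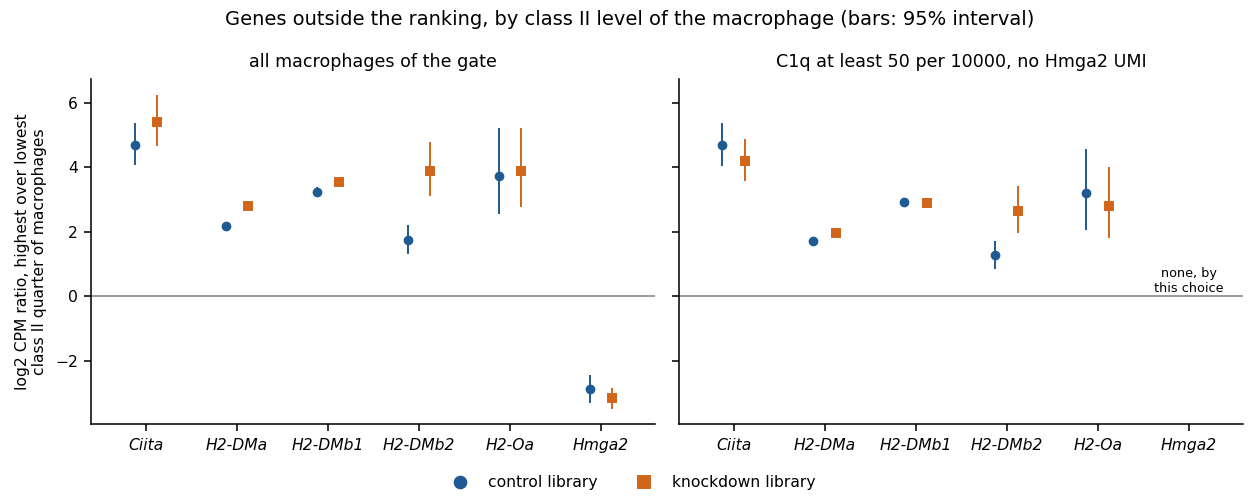
Log2 CPM ratio of class II-high over class II-low macrophages, the highest and lowest of 4 equal groups by summed H2-Aa, H2-Ab1, H2-Eb1 and Cd74, for genes outside that sum, with 95% counting intervals, in all gated macrophages (left) and in those with C1q of at least 50 per 10000 and no Hmga2 UMI (right). Ciita shows log2 ratios of 4.69 and 5.40 on the left and 4.68 and 4.18 on the right, and Hmga2 is below 0 on the left.

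Outside the class II genes, the largest ratios toward the class II-high group in the control library belonged to Gbp2b, an interferon-induced guanylate-binding protein, from 0.913 to 77.4 CPM, then Ear2, H2-M2, Dnase1l3, Gm20513, Kynu and Htr7. Gm20513 overlaps H2-Eb1 on the opposite strand, and reads of the pair may not be told apart. Gbp2b was at 2.44 and 111.7 CPM in the knockdown library, which did not choose it, and the other 6 had log2 ratios between 2.55 (Kynu) and 5.40 (H2-M2) there. Toward the class II-low group stood Lcn2, S100a9 and S100a8, which neutrophils carry, then Hspb1, Dpt, Col8a1, Tafa1 and Adm. The neutrophil genes were nearly absent from the knockdown groups, with 0, 1 and 4 UMIs over both, while Tafa1 was at 122 and 5.77 CPM and Adm at 38.4 and 4.28 CPM there. In the stricter macrophages Cxcl9, a chemokine induced by interferon gamma, went from 109 to 1023 CPM and, in the knockdown library, from 110.2 to 884 CPM. Their class II-low group was led by Hspb1, F13a1 and Cbr2, with F13a1, the coagulation factor XIII A chain, at 176 and 11.4 CPM (control) and 166 and 4.08 CPM (knockdown).

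The other genes of the pathway were counted by the same 1.5-fold in macrophages, which 10.5% of all genes passed upward and 1.26% downward, shares from which lists this short can hardly be told apart. None of 16 regulators reached it (median log2 ratio 0.12), with Rfx5, a subunit of the factor that binds the X box, highest at 0.35 (3.79 to 4.83 CPM) and Creb1 next at 0.29. Spi1, the myeloid factor PU.1, was lowest at -0.24, and Irf8 was at -0.21. Of 10 genes of peptide loading and turnover none reached it either (median -0.21). Ctsd and Lgmn, lysosomal proteases, were lowest at -0.44 each, and Ctsl and Sppl2a, which cleaves the last stub of the invariant chain, were highest at 0.17 and 0.14. Of 6 costimulatory genes none reached it (median -0.12), with Pdcd1lg2 at -0.31, Icosl at -0.27, Cd86 at -0.05 and Cd274 at 0.09. Among 6 ligands and co-receptors of Cd74 with at least 100 UMIs, Ackr3 was the 1 past 1.5-fold (3.37 to 6.13 CPM, 0.86), and Cxcr4 was at -0.34, App at -0.11 and Mif, the cytokine that binds Cd74, at 0.08. Among 4 T cell genes, 3 had at least 100 UMIs in 1 library. Of these, Trbc2 was the 1 past 1.5-fold at 0.64, and Cd3e was at 0.45 and Lag3 at 0.39 in the macrophage gate, where the 7 T cell markers summed to 60.8 and 90.1 CPM. Cd4, with 62 and 52 UMIs, was at -0.11 (-0.67 to 0.44).

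In monocytes the presenting genes were lower in the knockdown library. Control monocytes had Cd74 at 4009 CPM from 2076 UMIs and knockdown monocytes at 2449 CPM from 263 UMIs (log2 ratio -0.71, -0.90 to -0.53). H2-Eb1 had 1091 and 568 CPM (-0.94), H2-Ab1 1306 and 763 CPM (-0.77) and H2-Aa 914 and 587 CPM (-0.64). All 4 had intervals below 0. H2-DMa (-0.31, -0.81 to 0.16) and H2-DMb1 (-0.53, -1.26 to 0.14) had intervals that included no difference. Of the 6 members with at least 100 UMIs in 1 library, 4 were at least 1.5-fold lower and 0 higher, beside 13.4% of 785 genes lower and 3.18% higher. Of the 6, only Cd74 had at least 100 UMIs in both libraries. The gate held 517778 control and 107404 knockdown UMIs. The filter thus favoured genes high in the control library, among the members and in the background alike. Without cells that hold a Hmga2 UMI (135 and 35 cells) H2-Eb1 alone, at -0.81, stayed past that fold, with Cd74 at -0.50, H2-Ab1 at -0.55 and H2-Aa at -0.40, and scaled by TMM H2-Aa was short of it at -0.56. One knockdown cell held 22.8% of the class II UMIs of its gate. The other members were too thin to compare: H2-DMb2 had 7 and 1 UMIs, Ciita 16 and 2, and H2-Oa none. The knockdown monocytes were 40 cells, and their T cell markers summed to 298 CPM against 7.73 CPM, their fibroblast genes to 670 against 189 CPM and their neutrophil markers to 74.5 against 1236 CPM. The part of T, fibroblast and neutrophil RNA in the ratios was not tested. The median cell held 14.5 class II UMIs per 10000 among control and 14.3 among knockdown monocytes, so the medians lay close while the sums did not. Without doublet removal, with 153 and 43 cells, none of the 4 was past 1.5-fold: Cd74 was at -0.26, H2-Ab1 at -0.40, H2-Eb1 at -0.44 and H2-Aa at -0.12 (-0.47 to 0.21).

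**Figure D4:**
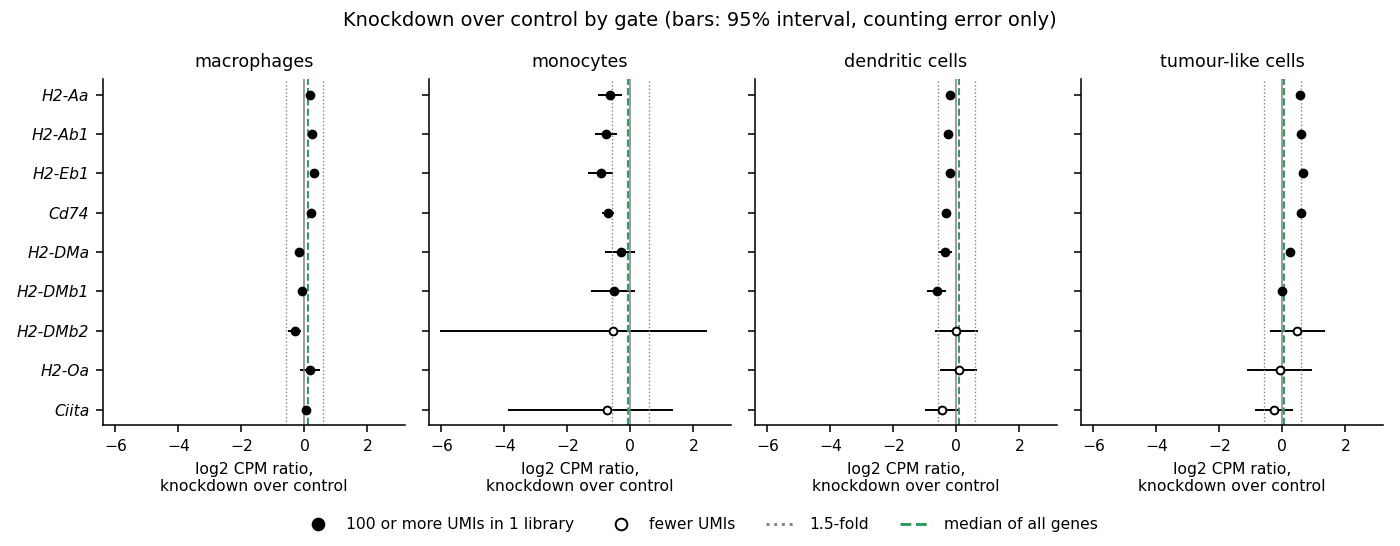
Log2 CPM ratio, knockdown over control, of each gene in the 4 gates with 95% counting intervals, filled where at least 100 UMIs were counted in 1 library, with dotted lines at 1.5-fold and a dashed line at the median of all genes. With doublets removed as reported, the classical chains and Cd74 lie above 0 in macrophages and tumour-like cells and below 0 in monocytes and dendritic cells, the last of which turn above 0 without doublet removal.

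Dendritic cells of the knockdown library had lower Cd74 (10133 to 8028 CPM, log2 ratio -0.34, -0.39 to -0.28). H2-Ab1 was at -0.28, H2-Aa and H2-Eb1 were at -0.20 each, H2-DMa was at -0.37 and H2-DMb1 at -0.63 (-0.92 to -0.33). Ciita was at 107 and 78.3 CPM (-0.45, -1.01 to 0.09), on 63 and 54 UMIs. Of 6 members with enough UMIs, 1 was at least 1.5-fold lower, beside 7.86% of 1082 genes lower and 7.58% higher (85 and 82 genes, or 106 and 58 scaled by TMM). These ratios rest on which cells were kept: without doublet removal (72 and 60 cells) Cd74 was at 0.02, H2-Ab1 at 0.09, H2-Aa and H2-Eb1 at 0.15 each and H2-DMb1 at -0.18, short of 1.5-fold. Among cells that met no other gate (37 and 31) Cd74 was at 15385 and 10448 CPM (-0.56) and Ciita at 196 and 93.7 CPM (-1.07, -1.80 to -0.36). The dendritic markers themselves summed to 2081 and 1247 CPM, and Hmga2 was at 83.4 and 120 CPM.

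The gate held at least 2 kinds of dendritic cell, told apart by genes of the gate. Cells with 2 or more UMIs of Xcr1 and Clec9a, receptors of conventional type 1 dendritic cells, and fewer than 2 of Ccr7 numbered 21 (control) and 19 (knockdown). Cells with 2 or more of Ccr7, the receptor of migratory dendritic cells, numbered 31 and 24. In the control library Cd74 was at 20289 CPM in the first and 8605 CPM in the second, and in the knockdown library at 14361 and 5077 CPM. H2-DMa, which migratory cells carried at a far lower level, was at 1396 against 183 CPM and 913 against 108 CPM. H2-DMb1 was at 772 against 113 CPM and 518 against 46.3 CPM. Ciita was at 239 against 49.4 CPM and 138 against 72.0 CPM. Both libraries thus had the higher level of each of these genes in the Xcr1 or Clec9a cells. For Ciita in the knockdown library the intervals overlapped (97.1 to 190 and 39.4 to 121 CPM, on 37 and 14 UMIs). H2-Oa was at 193 against 42.3 CPM and 108 against 66.9 CPM, with overlapping intervals in the knockdown library (72.4 to 155 and 35.6 to 114 CPM). H2-Eb2, a class II beta chain outside the 9, had all 8 of its control dendritic UMIs in the Ccr7 cells, 4 of them in cells that also met the tumour-like gate. In the knockdown library 6 of its 7 dendritic UMIs lay in the Ccr7 cells and 1 in the Xcr1 or Clec9a cells. Both kinds carried more Hmga2 in the knockdown library (4.59 and 104 CPM in the first, 14.1 and 165 CPM in the second). The remaining 10 control and 13 knockdown cells had Cd74 at 1370 and 3065 CPM and Hmga2 at 202 and 101 CPM.

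In tumour-like cells class II RNA was scarce, and its presenting genes were higher in the knockdown library. Cd74 was at 62.1 and 93.2 CPM (log2 ratio 0.59, 0.54 to 0.63), H2-Eb1 at 30.5 and 48.0 CPM (0.66), H2-Ab1 at 30.3 and 45.9 CPM (0.60) and H2-Aa at 18.9 and 27.8 CPM (0.56). Of 6 members with enough UMIs 3 were at least 1.5-fold higher and 0 lower, beside 2.33% of 12372 genes higher and 0.736% lower. Cd74 was just inside that fold and H2-Aa just outside it (1.47-fold). Scaled by TMM, H2-Eb1 at 0.62 was the 1 still past it, with Cd74 at 0.55 and H2-Ab1 at 0.56, and with every cell weighted equally none was, at 0.31 (H2-Aa and Cd74), 0.39 (H2-Ab1) and 0.42 (H2-Eb1). None was past it without doublet removal either, where H2-Eb1 was at 0.56 and Cd74 at 0.44. All 4 were past it in cells with at least 10000 UMIs, from 0.66 (H2-Aa) to 0.75 (H2-Eb1). H2-DMa was at 0.25 (0.14 to 0.37), H2-DMb1 at -0.02 (-0.11 to 0.06) and Ciita at -0.26 (-0.87 to 0.34) on 58 and 41 UMIs.

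These levels lay near those of macrophage markers in the same cells. Of their macrophage level, tumour-like cells had 0.587% (control) and 0.771% (knockdown) for Cd74, 0.696% and 0.900% for H2-Aa, 0.764% and 0.985% for H2-Ab1 and 0.737% and 0.946% for H2-Eb1. The 7 macrophage markers other than C1q had 0.405% to 1.13% (median 0.721%) in control and 0.615% to 1.70% (median 1.08%) in knockdown cells, so the presenting genes fell inside the range of genes that mark macrophages. The 10 macrophage markers together summed to 526 and 647 CPM in tumour-like cells. In T cells, which had a median of 3158 and 2932.5 UMIs, Cd74 was at 1.13% and 1.12% of its macrophage level. Among the 643 control and 858 knockdown tumour-like cells with no C1q UMI, Cd74 was at 86.6 and 80.8 CPM (-0.10), H2-Aa at -0.08 and H2-Eb1 at 0.24. The 1% of cells with the most class II held 21.4% and 15.7% of these UMIs, and without them the ratios were larger, 0.61 for H2-Aa, 0.70 for H2-Ab1 and Cd74 and 0.75 for H2-Eb1.

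H2-DMb1 did not follow that pattern in tumour-like cells. It was at 25.3 and 24.9 CPM there, or 5.56% (5.35 to 5.78) and 5.84% (5.59 to 6.09) of its macrophage level, above each of the other 8 members and above the 10 macrophage markers in both libraries. These intervals cover the tumour-like count alone. A H2-DMb1 UMI was found in 37.4% and 31.0% of tumour-like cells. Thinned to 3000 UMIs a cell, the shares were 8.12% and 7.23% in tumour-like cells against 2.11% and 1.66% in T cells, whereas for Cd74 they were 15.0% and 20.8% against 29.1% and 29.3%. Tumour-like cells held 18.3% and 18.0% of all H2-DMb1 UMIs but 2.08% and 2.55% of all Cd74 UMIs. H2-DMa, its partner chain, was at 2.31% and 3.12% of the macrophage level in tumour-like cells and at 5.15% and 5.99% in T cells.

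**Figure D5:**
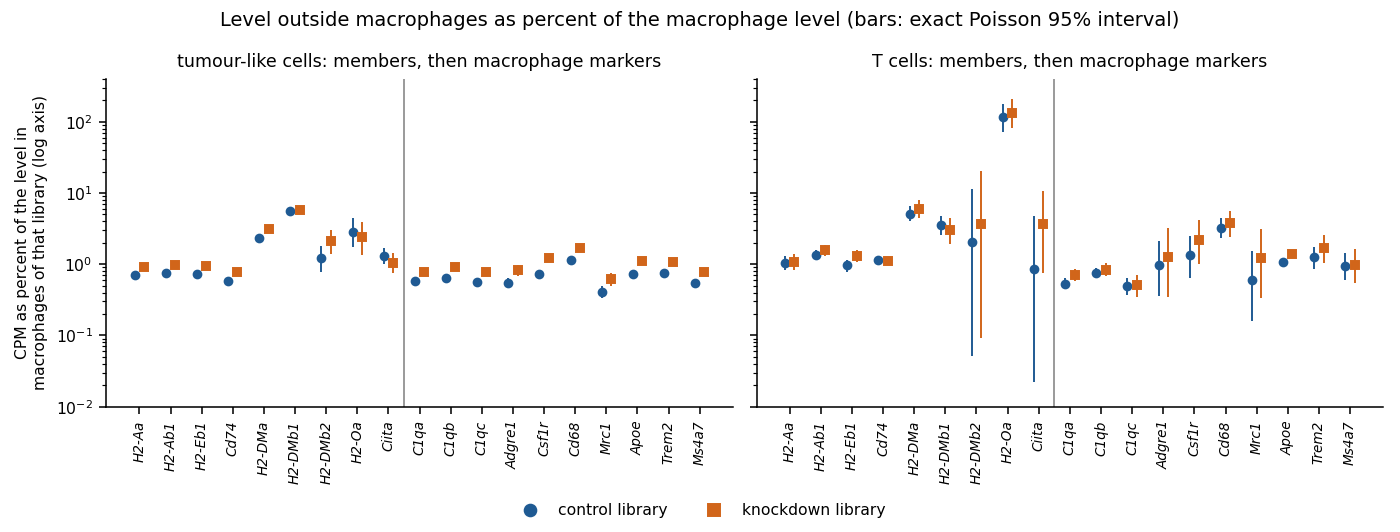
CPM in tumour-like cells (left) and T cells (right) as a percent of the CPM in macrophages of the same library (log axis), for the 9 genes and then 10 macrophage markers. Bars are exact Poisson 95% intervals of the tumour-like or T cell count, with the macrophage level taken as fixed. H2-DMb1 stands above the other genes in tumour-like cells at 5.56% and 5.84%, and H2-Oa stands above the others in T cells at 115% and 135%.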

How the data were processed

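Single-cell RNA was measured in 2 libraries, 1 per group. Per the file headers, the authors deposited raw UMI counts made with Cell Ranger 6.1.0, whereas the submitters' processing notes name Cell Ranger 3.1.0. Genome build, annotation and strand setting are not given in the sources used here, so reads of close copies or overlapping genes could be divided in ways that cannot be checked. The members and all lists were chosen with earlier results of these data known.

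Cells with under 200 genes (34 control, 19 knockdown) or over 20% mitochondrial UMIs (164, 72) were left out. Scrublet scores (scanpy 1.11.5, Python 3.11.15) removed the top-ranked cells at 0.8% per 1000 cells, 1148 (9.59%) control and 1322 (10.3%) knockdown. UMIs were summed per gate and library and scaled to CPM by all UMIs of those cells. Poisson and Clopper-Pearson exact intervals at 95% cover counting error, and a log2 ratio carries the exact conditional interval of its 2 counts. A count of 0 was read as a limit of 3 counts. Genes with at least 100 UMIs in 1 library formed the background, with a call at 1.5-fold. Cells near a gate's bound numbered 293 and 448 for macrophages, 27 and 17 for monocytes, 14 and 22 for dendritic cells and 612 and 1254 for tumour-like cells. T cells had at least 2 Cd3 UMIs, and NK cells Ncr1 and Klrb1c likewise, with little C1q and Lyz2. All 9 members are named. In each context list the 2 highest and 2 lowest ratios are named, for likeness the top 10 genes, and for the macrophage groups the 8 genes at each end in the control library. Alternatives were doublet handling, scaling (TMM, edgeR 4.0.16 in R 4.3.3, or median of ratios), equal weight per cell, stricter gates and removal of mixed cells. Scripts were tested on simulated data. Shared barcodes between libraries numbered 37, 28 of them kept.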

Additional observations from a re-analysis of the deposited data

Results flagged for a closer look

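The knockdown over control ratio of the presenting genes pointed up in tumour-like cells and down in monocytes. The log2 ratio in tumour-like cells minus that in monocytes was 1.20 for H2-Aa, 1.37 for H2-Ab1, 1.60 for H2-Eb1 and 1.30 for Cd74. For H2-DMa the log2 ratio in tumour-like cells exceeded that in dendritic cells by 0.62. Each group had 1 library, so these differences were not tested. Without doublet removal the log2 ratios in tumour-like cells and monocytes lay closer, at 0.47 and -0.12 for H2-Aa, 0.49 and -0.40 for H2-Ab1, 0.56 and -0.44 for H2-Eb1 and 0.44 and -0.26 for Cd74, and those of H2-DMa in tumour-like and dendritic cells were 0.22 and -0.10. With Lyz2 of at least 40 and C1q under 2 per 10000, which left 64 and 13 monocytes, the monocyte ratios were lower, at -1.54 for H2-Aa, -2.08 for H2-Ab1, -3.28 for H2-Eb1 (on 4 knockdown UMIs) and -1.42 for Cd74. The knockdown monocytes were 40 cells, and in tumour-like cells without a C1q UMI H2-Aa was at -0.08, Cd74 at -0.10, H2-Ab1 at 0.0031 and H2-Eb1 at 0.24 (0.03 to 0.44).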

How the results depend on the processing

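Of the alternatives to the 4 gate medians, 30 left the value within a band from the median of the members' lower bounds to that of their upper bounds. Of the others, 10 moved it out and 3 turned its direction where that band excluded 0. The band is not a counting interval of the median itself. In macrophages the median log2 ratio of the members, reported as 0.18, was 0.076 with TMM, 0.077 with median of ratios, 0.29 without doublet removal, 0.37 with Scrublet's own threshold, 0.29 with all deposited barcodes, 0.21 with every cell weighted equally, 0.20 in cells of 1 gate only, 0.27 without cells that hold a Hmga2 UMI, 0.26 with C1q of at least 20 per 10000 and 0.41 with C1q of at least 50, the last chosen after the data were seen. In monocytes it was -0.68 as reported and -1.48 with Lyz2 of at least 40 and C1q under 2 per 10000. Without doublet removal it fell between the values of H2-DMb1 (-0.26) and H2-Ab1 (-0.40). Without cells that hold a Hmga2 UMI it fell between those of H2-Aa (-0.40) and Cd74 (-0.50). In dendritic cells it was -0.28 as reported and 0.086 both without doublet removal and with all deposited barcodes. In tumour-like cells it was 0.47 as reported, 0.21 with every cell weighted equally, -0.10 without cells that hold a C1q UMI and 0.66 with at least 10000 UMIs a cell. The 0.47 is the value of H2-DMb2, on 23 and 27 UMIs (-0.38 to 1.34). The -0.10 is the value of Cd74, in an order that includes H2-DMb2, H2-Oa and Ciita on at most 5 UMIs each per library. The 0.18 reported in macrophages is the value of H2-Oa, on 160 and 164 UMIs. The cause of the changes between settings was not tested.

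Genes past 1.5-fold numbered 1263 in macrophages, 130 in monocytes, 167 in dendritic cells and 379 in tumour-like cells. With at least 20 UMIs in 1 library there were 2551, 1446, 1340 and 1318, and with at least 1 UMI in both libraries 5625, 5014, 4686 and 4450. Past 2-fold there were 631, 54, 39 and 111. Without doublet removal macrophages had 537 and dendritic cells 100.

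Among single members, 209 values stayed within the reported interval, 113 moved and 18 turned direction from an interval that excluded 0. Changes of sign from an interval that included 0 are not among the 18. In macrophages H2-DMb1 was at 0.0048 without doublet removal and 0.0052 with all deposited barcodes. H2-DMa and H2-DMb1 were at 0.12 and 0.21 with Scrublet's own threshold, 0.0019 and 0.078 without cells that hold a Hmga2 UMI, and 0.045 and 0.13 with C1q of at least 50. Under TMM and median of ratios Ciita went to -0.05, inside its reported interval of -0.08 to 0.18, and is not among the 18. In dendritic cells H2-Aa, H2-Ab1, H2-Eb1 and Cd74 were at 0.15, 0.086, 0.15 and 0.023 both without doublet removal and with all deposited barcodes. In tumour-like cells without a C1q UMI H2-Aa was at -0.082 and Cd74 at -0.10. Ratios of class II-high over class II-low macrophages moved in 9 of their alternatives and kept their value in 11.

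No paired analysis was possible because each group had 1 library. Depth limits H2-DMb2, H2-Oa and Ciita in monocytes, dendritic cells and tumour-like cells, where under 100 UMIs were counted in each library.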

Other observations

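Cells outside every gate included some with much class II RNA. With a summed H2-Aa, H2-Ab1, H2-Eb1 and Cd74 level of at least 50 per 10000, they numbered 68 control and 103 knockdown cells (median 4156.5 and 2760 UMIs). Since that level chose them, their Cd74 of 15583 and 11816 CPM is a description. Of the genes outside that sum, H2-DMa was at 858 and 711 CPM, Ciita at 163 and 155 CPM, H2-DMb2 at 301 and 197 CPM and H2-Oa at 198 and 186 CPM. In gated macrophages these genes rose with the same sum, so their values here are a description as well. The dendritic cells given next were not cut on class II, so the levels are not like for like. In gated dendritic cells H2-DMb2 was at 61.3 and 60.9 CPM and H2-Oa at 81.7 and 85.6 CPM. In those that met no other gate H2-DMb2 was at 100.2 and 100.4 CPM and H2-Oa at 138 and 161 CPM. In Xcr1 or Clec9a cells H2-DMb2 was at 115 and 55.9 CPM and H2-Oa at 193 (139 to 261) and 108 CPM (72.4 to 155).

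Being outside the gates kept their C1q and the dendritic gate genes low, and the marker sums hold those genes. The 10 dendritic markers summed to 319 and 450 CPM (85.7 and 106 CPM in gated macrophages), the 6 B cell markers to 178 and 59.4 CPM and the 10 macrophage markers to 4199 and 1477 CPM. Flt3, a receptor of dendritic cells and their precursors, was at 30.1 and 49.8 CPM. Siglech, a marker of plasmacytoid dendritic cells, had no control UMI and 1.92 CPM among knockdown cells. Ms4a1, the B cell antigen CD20, was at 5.02 CPM in control and had no UMI in knockdown cells. Lyz2 was at 1294 and 249 CPM and Ptprc at 472 and 366 CPM.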
